A study of Mus musculus with 6 samples.

Results

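DNA replication and S phase genes were followed in embryonic mouse palate as a set of 48 genes. They were chosen by function, with earlier results of these data known. The set covers origin licensing, the replication fork, nucleotide supply, chromatin assembly and entry into S phase. All 48 symbols were found among the 24421 rows of the authors' deposited comparison, and all 48 are among the 14942 rows with an adjusted p. The tissue was the anterior palatal mesenchyme of C57BL/6 embryos at E12.5, from which the protease Dispase II had stripped the epithelium. RNA-seq libraries came from 3 wildtype samples and 3 Wnt1Cre;Meis2f/f samples, which the labels call biological replicates. Wnt1Cre is a recombinase active in the neural crest, which forms most of this mesenchyme, and Meis2f/f is a floxed allele of Meis2, a homeodomain transcription factor. Muscle precursors, macrophages and endothelium of the palate come from other lineages, in which this Cre is not expected to act. The wildtype label names no Cre and no floxed allele, so Cre and deletion cannot be told apart. The labels do not say which exons the floxed allele loses.

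Before S phase, origin recognition proteins, Cdc6 and Cdt1 load the Mcm2 to Mcm7 helicase onto origins, and cyclin E and Cdc7 kinase activities then fire them. At the fork, Cdc45 and the GINS complex complete the helicase, polymerases alpha, delta and epsilon copy the strands, the Pcna clamp holds them on DNA, and ribonucleotide reductase and thymidylate enzymes supply the building blocks. Many of these genes are transcribed together in late G1 and S phase under E2F factors, so in a tissue their RNA is commonly read as a mark of cycling cells. The palatal shelves of this stage are outgrowths of proliferating mesenchyme.

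The authors' deposited tables hold means over libraries, and the digits of those means fixed 1 set of whole read counts per gene and library for 47 of the 48 genes. Dnmt1, the maintenance DNA methyltransferase, is the exception and is given from the deposited tables only. Normalised read counts below are these reads divided by the library's size factor. The libraries carry no replicate numbers in the tables and are called wildtype A, B and C and mutant A, B and C, in order of size factor within a genotype. The B libraries are the 2 that the authors' second table, a comparison of 4 libraries, does not include. Reads in the solved genes ran from 7612682 to 13761129 per library. Meis2 stood at 1526, 1549 and 1695 normalised reads in wildtype A, B and C and at 1250, 1378 and 1218 in mutant A, B and C. The mutant libraries were all below the wildtype libraries, with a ratio of means of 0.806. In the authors' deposited table the Meis2 log2 fold change was -0.28 (SE 0.0917, DESeq2 adjusted p 0.0743) with 6 libraries, and with 4 libraries it was -0.33 (adjusted p 0.0213). The direction of every difference here rests on reading the sign so that Meis2 is lower in the mutant.

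Fold changes of the replication genes were below 0 almost throughout, and none passed the test. By library, the groups overlapped for 31 of the 47 solved genes. Of the 48 genes, 47 had a log2 fold change below 0 in the authors' deposited table of 6 libraries, where 53.5% of all genes with an adjusted p did. The median of the 48 was -0.15, a ratio of 0.901, and they ran from -0.33 for Rrm2 to 0.005 for Orc1, beside a median of -0.01 over all genes. At a DESeq2 adjusted p under 0.05, 0 of the 48 fell and 0 rose, and 1.16% of all genes fell. At an unadjusted p under 0.05, 8 of the 48 were lower and 0 higher, against 5.11% of all genes that were lower. These 8 were Rrm2, Ccne1, Ccne2, Rfc4, Tk1, Prim1, Gins1 and Mcm10. Deposited fold changes are shrunk toward 0 by the authors' fit, so ratios of normalised reads are given beside them.

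**Figure D1:**
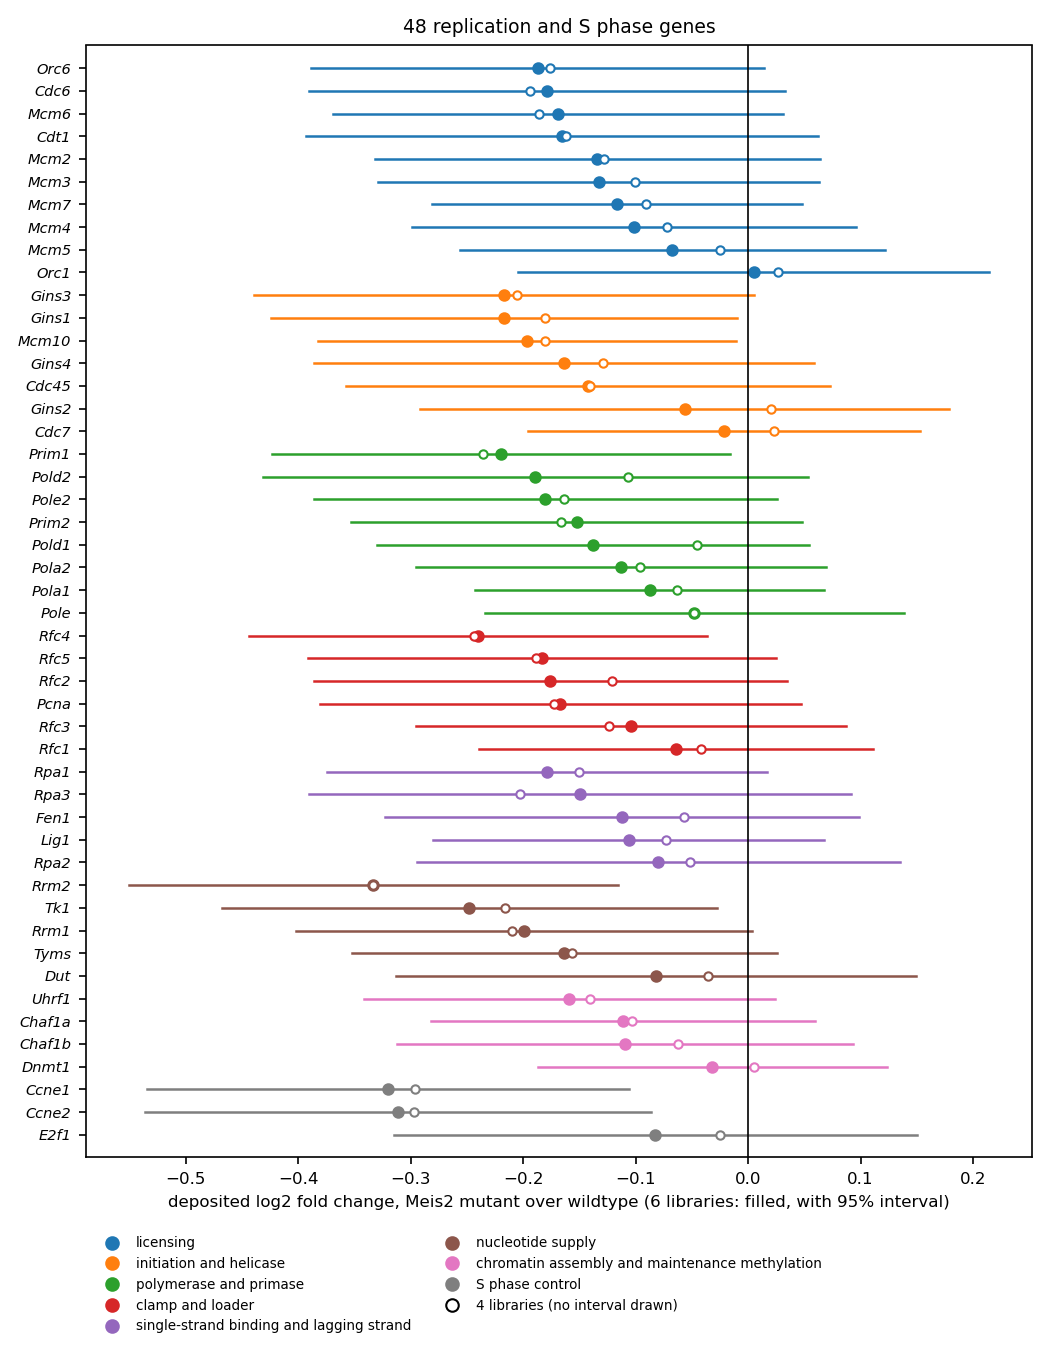
Deposited log2 fold changes of the 48 genes, mutant over wildtype, grouped by role: filled points with 95% interval from the 6-library table, open points from the 4-library table. All filled points except Orc1 lie below 0, most intervals cross 0, and the 3 lowest points are Rrm2 at -0.33, Ccne1 at -0.32 and Ccne2 at -0.31.

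Of the 8 roles, entry into S phase had the lowest median log2 fold change in the authors' deposited table, -0.31 over 3 genes. Ccne1 encodes cyclin E1, which with Cdk2 drives cells from G1 into S phase, and lies on chromosome 7 (GRCm38, 38097984 to 38107534, minus strand). Ccne1 was at 435, 390 and 430 normalised reads in wildtype A, B and C and at 316, 309 and 342 in mutant A, B and C. The highest mutant library was below the lowest wildtype library, and the means were 419 ± 24.6 in wildtype and 323 ± 17.7 in mutant (SD, n = 3 each). In the authors' deposited table its log2 fold change was -0.32 (SE 0.109, DESeq2 adjusted p 0.0929). Ccne2, the gene of the second cyclin E on chromosome 4 (GRCm38, 11191351 to 11204779, plus strand), was at 368, 312 and 334 in wildtype A, B and C and at 257, 256 and 270 in mutant A, B and C. These groups did not overlap either, and the means were 338 ± 27.8 in wildtype and 261 ± 7.90 in mutant (SD, n = 3 each). The deposited log2 fold change of Ccne2 in the authors' table was -0.31 (SE 0.115, adjusted p 0.150). E2f1, the transcription factor that activates many of the genes described here, was at 233, 273 and 256 in wildtype A, B and C and at 236, 235 and 237 in mutant A, B and C. Wildtype A was the lowest of the 6 libraries for E2f1, so its groups overlapped, and its deposited log2 fold change was -0.08 (adjusted p 0.910) in the authors' table.

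Nucleotide supply held the lowest fold change of the 48. Rrm2 encodes the small subunit of ribonucleotide reductase, the enzyme that makes deoxynucleotides, and lies on chromosome 12 (GRCm38, 24708241 to 24714146, plus strand). It was at 1830, 1413 and 1620 normalised reads in wildtype A, B and C and at 1211, 1064 and 1424 in mutant A, B and C. Mutant C was just above wildtype B, and the other libraries of the groups stood apart. The Rrm2 means were 1621 ± 208 and 1233 ± 181 (SD, n = 3 each), a ratio of 0.760. With all 6 libraries, the authors' deposited table gave a log2 fold change of -0.33 (SE 0.111, DESeq2 adjusted p 0.0775). Rrm2 was the single member that fell in the authors' deposited table of 4 libraries, with -0.33 and an adjusted p of 0.0350, where 0.99% of all genes fell. Rrm1, the large subunit, was at 4575, 3736 and 4630 in wildtype A, B and C and at 3758, 3208 and 4069 in mutant A, B and C. Mutants A and C of Rrm1 were above wildtype B, so the groups overlapped. Thymidine kinase Tk1, which salvages thymidine, was at 607, 493 and 518 in wildtype A, B and C and at 469, 391 and 460 in mutant A, B and C, without overlap. The deposited log2 fold changes in the authors' table were -0.25 for Tk1 (adjusted p 0.358), -0.20 for Rrm1 (0.491), -0.16 for the thymidylate synthase Tyms (0.602) and -0.08 for the dUTPase Dut (0.910).

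**Figure D2:**
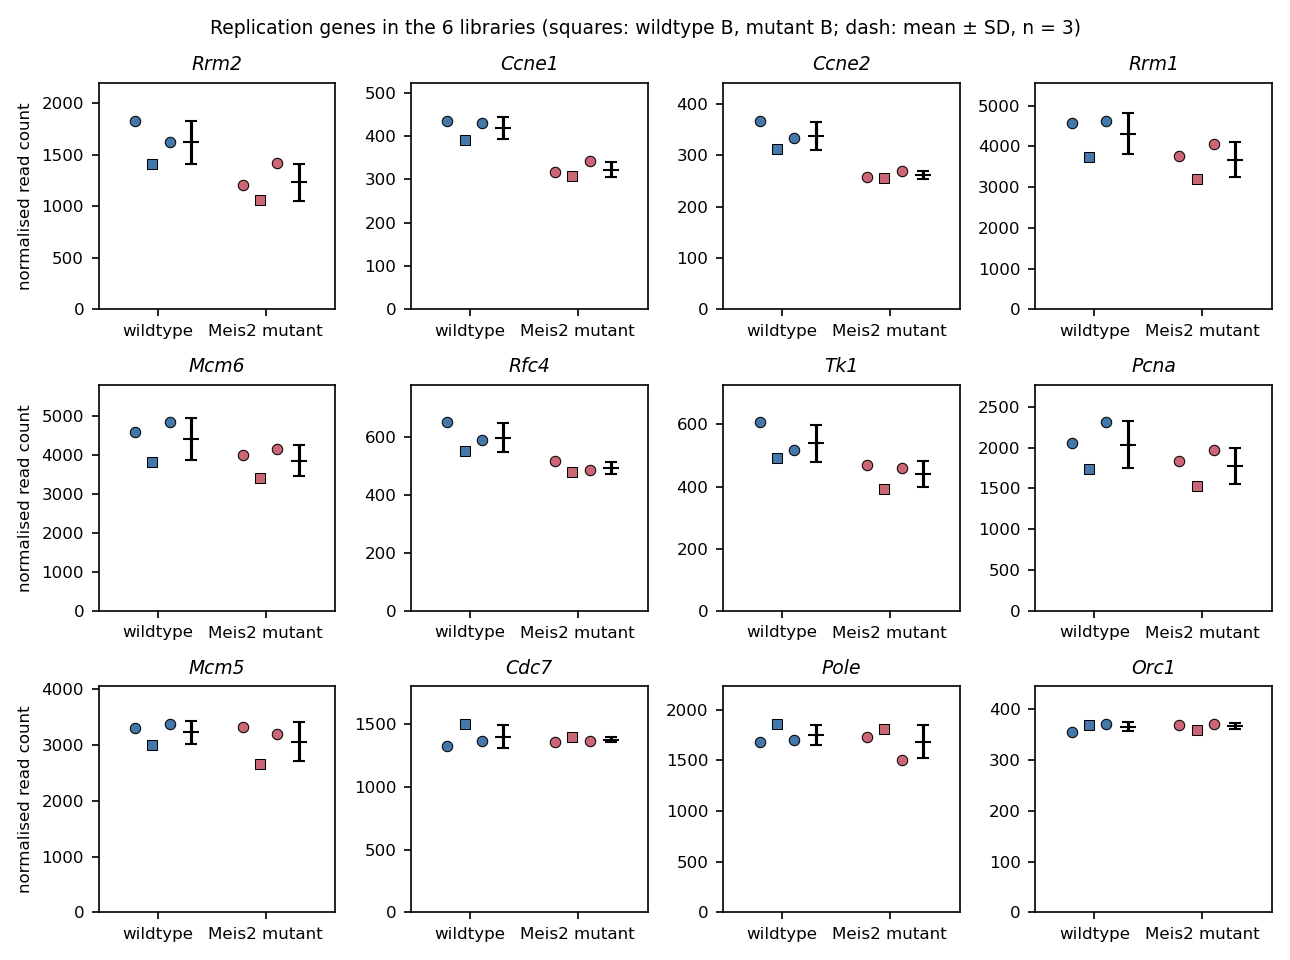
Normalised read counts of 12 genes in the 6 libraries, from 0; each point is a library, squares are the B libraries, and the dash with bars is the mean ± SD (n = 3). The 3 mutant points of Ccne1, Ccne2, Rfc4 and Tk1 lie below all wildtype points, those of Rrm2, Rrm1, Mcm6 and Pcna overlap through wildtype B, and those of Orc1, Cdc7 and Pole overlap the wildtype points.

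Licensing genes, the loaders and the Mcm ring, had a median of -0.13 over 10 genes in the authors' deposited log2 fold changes, with 9 below 0. The 6 genes of the Mcm2 to Mcm7 ring lay between -0.17 for Mcm6 and -0.07 for Mcm5. Mcm6 was at 4594, 3812 and 4839 normalised reads in wildtype A, B and C and at 4007, 3404 and 4162 in mutant A, B and C. Mcm4 was at 4400, 3825 and 4479 in wildtype A, B and C and at 4092, 3344 and 4284 in mutant A, B and C. Mcm5 was at 3292, 2995 and 3375 in wildtype A, B and C and at 3311, 2660 and 3194 in mutant A, B and C. In all 3 of these genes the B library was the lowest of its genotype and mutant A and C lay above wildtype B, so the groups overlapped. Mcm7 was the 1 ring gene without overlap, with wildtype means of 2694 ± 77.6 and mutant means of 2468 ± 136 (SD, n = 3 each). Cdt1, the loader that is destroyed once S phase begins, was at 265, 265 and 281 in wildtype A, B and C and at 233, 243 and 229 in mutant A, B and C, without overlap. Orc1, the origin recognition ATPase, was at 356, 370 and 372 in wildtype A, B and C and at 370, 360 and 371 in mutant A, B and C. Orc1 was the single member above 0, and its 95% interval in the authors' deposited table ran from -0.20 to 0.21. The other 2 licensing genes, Cdc6 and Orc6, were at -0.18 and -0.19 in the authors' deposited table, and neither passed the test.

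Initiation and helicase genes had a median of -0.16 over 7 genes in the authors' deposited table. Of the 7 genes, 3 were lower without overlap between the groups, where 8.74% of all solved genes were. These were Mcm10, which joins the helicase at firing, and the GINS subunits Gins1 and Gins3. Gins1, named here after its values were seen, had the tightest mutant group of these, with means of 420 ± 9.42 in wildtype and 352 ± 2.90 in mutant (SD, n = 3 each) and a deposited log2 fold change of -0.22 (adjusted p 0.430) in the authors' table. Gins2, another subunit of that complex, was at 296, 293 and 316 in wildtype A, B and C and at 316, 242 and 303 in mutant A, B and C, so a mutant library was among its highest. Cdc7, the kinase that fires licensed origins, was at 1330, 1503 and 1365 in wildtype A, B and C and at 1360, 1398 and 1368 in mutant A, B and C. The groups overlapped, and its deposited log2 fold change in the authors' table was -0.02 (adjusted p 0.969). Gins4 and the helicase factor Cdc45 were at -0.16 and -0.14 in the authors' deposited table, and their groups overlapped.

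The replicative polymerases and primase had a median of -0.15 over 8 genes in the authors' deposited table, all below 0. Pola1, Pola2 and Pole2, subunits of polymerases alpha and epsilon, did not overlap between the groups, with ratios of means of 0.937, 0.916 and 0.864. Pola1 had means of 2861 ± 42.0 and 2680 ± 64.4 (SD, n = 3 each). Prim1, the primase that starts each strand with RNA, had a deposited log2 fold change of -0.22 (adjusted p 0.405) in the authors' table, and its groups overlapped. Pole, the catalytic subunit of the leading-strand polymerase, was at 1676, 1860 and 1704 in wildtype A, B and C and at 1731, 1813 and 1499 in mutant A, B and C. Mutant C was the lowest library of Pole and the groups overlapped. Pold2, a subunit of polymerase delta, was chosen here after its values were seen, because 1 library decides it: mutant B was at 294, and mutants A and C were at 392 and 446, beside 478, 410 and 445 in wildtype A, B and C. Its ratio of mutant to wildtype was 0.715 in the B libraries and 0.908 in the others. Prim2 and Pold1 were at -0.15 and -0.14 in the authors' deposited table, and neither passed the test.

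The clamp Pcna and the 5 subunits of its loader had a median of -0.17 in the authors' deposited table, with all 6 below 0. Rfc4, a loader subunit, was at 651, 552 and 591 in wildtype A, B and C and at 518, 478 and 486 in mutant A, B and C. Its groups did not overlap, and its deposited log2 fold change in the authors' table was -0.24 (SE 0.104, adjusted p 0.314). Pcna had means of 2034 ± 286 and 1774 ± 224 (SD, n = 3 each), and its difference was within the spread between libraries. The other loader subunits ran from -0.18 for Rfc5 and Rfc2 through -0.10 for Rfc3 to -0.06 for Rfc1 in the authors' deposited table. Rpa1, Rpa2 and Rpa3 encode the complex that coats single-stranded DNA, and Fen1 and Lig1 encode the nuclease and ligase that join lagging-strand fragments. These 5 had a median of -0.11 in the authors' deposited table. Rpa3 was at 270, 228 and 241 in wildtype A, B and C and at 218, 237 and 194 in mutant A, B and C, and it was the only member with mutant B above wildtype B. Lig1 was the 1 gene of these 5 without overlap.

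Genes of chromatin assembly and maintenance methylation behind the fork had a median of -0.11 over 4 genes in the authors' deposited table, as did the lagging-strand group. Chaf1a, the large subunit of the histone chaperone CAF-1, had means of 1137 ± 19.0 and 1044 ± 12.8 (SD, n = 3 each), without overlap. Uhrf1, which recruits Dnmt1 to newly copied DNA, did not overlap either and had a deposited log2 fold change of -0.16 (adjusted p 0.598) in the authors' table. Chaf1b was at -0.11 in the authors' deposited table, and its groups overlapped. Dnmt1 had the highest base mean of the 48 genes, 5832, and log2 fold changes of -0.03 with 6 libraries and 0.005 with 4 in the authors' deposited tables. Per kilobase of exon, the highest wildtype levels of the 47 solved genes were those of Mcm4 (1180 normalised reads per kb), Mcm6 (946) and Pcna (848), and the lowest were those of Gins2 (73.7), E2f1 (80.6) and Cdt1 (86.2).

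The 6 libraries differed among themselves as well as between genotypes. Summed over the 47 solved genes, normalised reads were 62730, 56674 and 63659 in wildtype A, B and C and 56340, 49744 and 57960 in mutant A, B and C. Wildtype B lay below mutant C in this sum and close to mutant A, and mutant B was the lowest of all. Mutant B was the lowest of the 6 libraries for 38 of 47 genes, and wildtype B was the lowest wildtype library for 39 of 47. The B libraries thus sat low within both genotypes: the median log2 ratio over the 47 genes was -0.16 for wildtype B against the other wildtype libraries and -0.15 for mutant B against the other mutant libraries. Between genotypes the median log2 ratio was -0.19 within the B libraries, with 46 of 47 genes below 0, and -0.17 within the A and C libraries, with 44 of 47 below 0. The 2 ratios come from separate libraries, but the B ratio is a single mutant library over a single wildtype library. Over 14277 genes the median log2 ratio was -0.03 within the B libraries and -0.01 within the A and C libraries. On the recovered reads of all 6 libraries the median log2 fold change was -0.18, and without mutant B it was -0.10, with 42 of 47 genes below 0. Genes measured in the same libraries are not independent of each other, and no test was made over the set. The labels do not say what sets the B libraries apart, and marker sums in which they differ are given below.

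**Figure D3:**
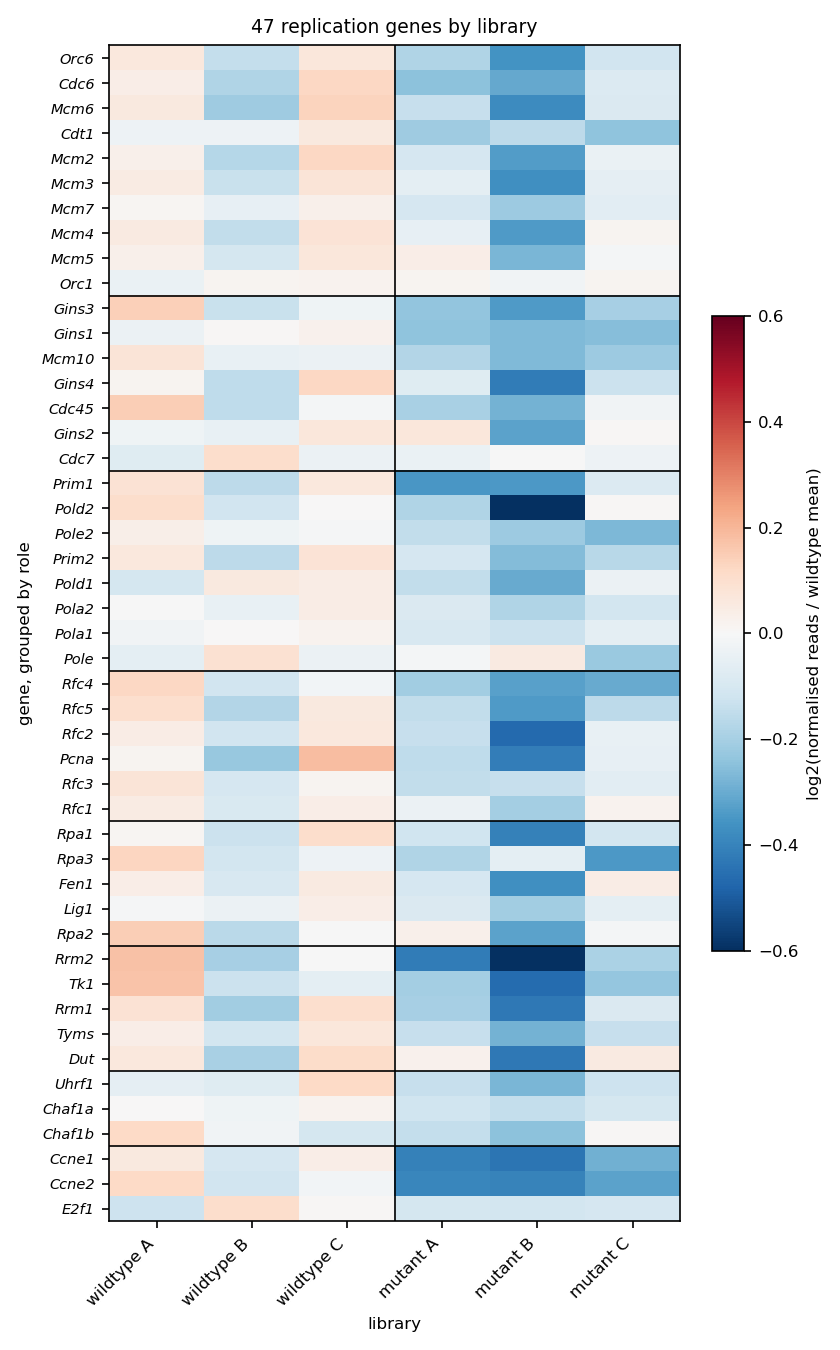
The 47 solved genes, 1 row each and grouped by role, in the 6 libraries; colour is the log2 ratio of normalised reads to the wildtype mean of that gene, red above and blue below. Wildtype B is paler or bluer than the other wildtype columns, and mutant B is the bluest column, with a median of -0.30 beside -0.14 in mutant A and -0.08 in mutant C.

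**Figure D4:**
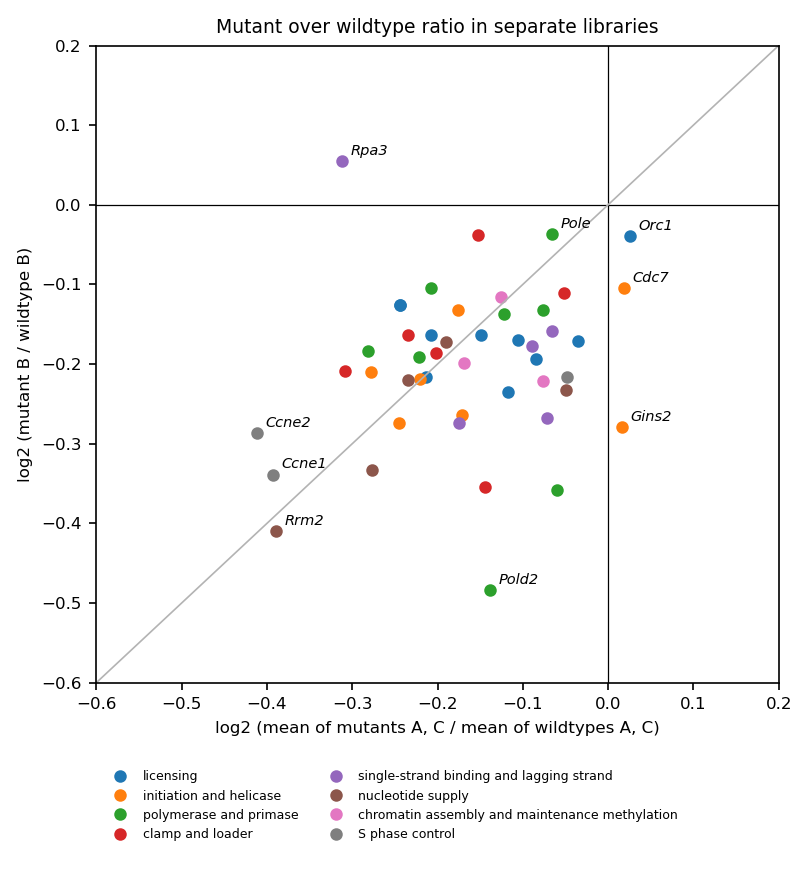
Log2 ratio of mutant to wildtype in the A and C libraries (x axis) and in the B libraries (y axis) for the 47 solved genes, coloured by role, with the line of equality. Most points lie below 0 on both axes; Orc1, Cdc7 and Gins2 lie right of 0 on the x axis and Rpa3 lies above 0 on the y axis.

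Without overlap between the groups, 16 of the 47 solved genes were lower in the mutant and 0 higher, where 8.74% of all 14640 solved genes were lower without overlap. These 16 were Ccne1, Ccne2, Tk1, Tyms, Mcm7, Cdt1, Mcm10, Gins1, Gins3, Pola1, Pola2, Pole2, Rfc4, Lig1, Chaf1a and Uhrf1. A limma test on log2(normalised reads + 1) across 14277 genes called 0 of the 47, with 0.834% of all genes called lower. With a term added for the B libraries, limma called 9 of the 47 lower at an adjusted p under 0.05 and 0 higher, and 5.6% of all genes were called lower. The 9 were Rrm2 (log2 fold change -0.40, limma adjusted p 0.00282), Ccne1 (-0.38, 0.0109), Rrm1 (-0.23, 0.0112), Ccne2 (-0.37, 0.0213), Mcm6 (-0.19, 0.0269), Rpa1, Rfc4, Tk1 and Prim1. This term was chosen after the data were seen, and it uses a split that the authors' own 4-library table makes. In that 4-library table as deposited by the authors, 44 of the 48 genes were below 0, where 50.8% of all genes were, with a median of -0.13. Its 4 libraries are among the 6, so the tables are not separate measurements.

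Most genes of the same process outside the set stood on the same side. These lists too were chosen with earlier results of these data known. Of 78 other replication, fork protection, nucleotide and E2F genes, 67 were below 0 in the authors' deposited table of 6 libraries. Their median was -0.12. The 14 licensing and firing genes among them lay near all genes, with 10 below 0, a median of -0.02 and 8 below 0 with 4 libraries. The other groups had medians from -0.18 (nucleotide supply) to -0.11 (S phase control). Over all genes with an adjusted p, 53.5% were below 0 and 1.16% were called lower. The test called 2 of the 78 lower and 0 higher: E2f7 (log2 fold change -0.34, DESeq2 adjusted p 0.0413) and E2f8 (-0.41, 0.0285), atypical E2F factors that repress E2F target genes. E2f7 was at 521, 474 and 536 normalised reads in wildtype A, B and C and at 389, 386 and 391 in mutant A, B and C. E2f8 was at 266, 277 and 305 in wildtype A, B and C and at 194, 216 and 182 in mutant A, B and C. Neither overlapped between the groups, and neither passed the test in the authors' 4-library table, where the adjusted p was 0.117 for E2f7 and 0.111 for E2f8. With limma on the recovered reads of 6 libraries the adjusted p was 0.0623 for E2f7 and 0.0534 for E2f8, and with the term for the B libraries it was 0.00586 and 0.00663. With the term for the B libraries, limma called 11 of 77 solved genes of this list lower and 0 higher, and 5.6% of all genes were called lower. In the authors' deposited 4-library table, 3 of the 78 fell, where 0.99% of all genes fell. These were the deubiquitinase gene Usp1, 2810417H13Rik, which encodes a Pcna-binding protein, and Ccna2, the cyclin A gene of S phase and mitosis. Usp1 is named by rule, and 2810417H13Rik and Ccna2 were named after their values were seen. Of 24 mitosis genes 24 were below 0 in the authors' deposited table of 6 libraries, with a median of -0.22, and 0 passed the test there. The smallest p-values were those of Bub1 (log2 fold change -0.29, DESeq2 adjusted p 0.066), Mad2l1 (-0.32, 0.0875) and Ube2c (-0.36, 0.12). With 4 libraries, 4 of the 24 fell. With the term for the B libraries, limma called 17 of 22 solved mitosis genes lower. Without overlap, 12 of these 22 were lower, where 8.74% of all solved genes were. Inhibitors of cyclin-dependent kinases, the D cyclins and their kinases Cdk4 and Cdk6, 10 genes in all, had 0 calls and a median of -0.14 in the authors' deposited table. Cdkn2d, an inhibitor of Cdk4 and Cdk6, was at 169, 160 and 158 in wildtype A, B and C and at 113, 95.02 and 136 in mutant A, B and C. Log2 fold changes deposited by the authors were -0.36 for Cdkn2d (DESeq2 adjusted p 0.17), -0.19 for Cdk4 (0.4897) and -0.27 for Cdkn2c (0.5125).

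**Figure D5:**
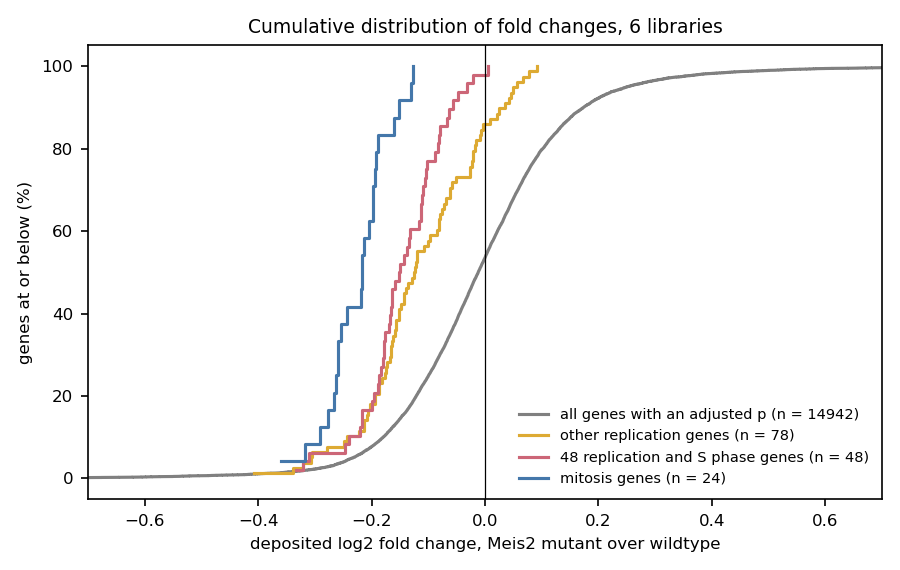
Cumulative share of genes (y axis, percent) at or below each deposited log2 fold change of the 6-library comparison (x axis), for all 14942 genes with an adjusted p, the 48 genes, the 78 other replication genes and the 24 mitosis genes. The curve of the 48 genes crosses the middle at -0.15, left of the curve for all genes at -0.01 and right of the mitosis genes at -0.22.

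Marker RNA of several cell types differed between genotypes as well. In bulk RNA, fewer cycling cells and less RNA of the replication genes per cell cannot be told apart. For the markers, likewise, the number of cells and the RNA per cell cannot be told apart. All 9 markers of palatal mesenchyme were detected, with base means from 103 for Msx1 to 50618 for Col3a1. With 6 libraries the authors' deposited table has 3 of the 9 lower and 0 higher past the threshold, with a median of -0.31: Shox2 (log2 fold change -0.90, DESeq2 adjusted p 4.36e-10), Twist1 (-0.45, 0.00859) and Prrx1 (-0.31, 0.0204). Pdgfra was at 0.20 (adjusted p 0.335) there, and in the 4-library table it rose (0.23, adjusted p 0.0473). The 5 solved mesenchyme markers, Osr2, Shox2, Msx1, Twist1 and Col1a1, summed to between 4738 and 7842 normalised reads in wildtype and between 3744 and 4319 in mutant libraries. This sum leaves out the markers with the highest base means, Col3a1 (50618), Pdgfra (16535), Prrx1 (10660) and Vim (6283). Of these, Col3a1 was at -0.10 and Vim at -0.12 in the authors' deposited table of 6 libraries, so the sum does not describe the mesenchyme as a whole. As a background for these marker calls, the 6-library comparison called 261 of the 14939 genes with a unique symbol higher and 173 lower. Summed over the solved genes of each list, muscle markers ran from 817 to 1231 normalised reads in wildtype and from 1916 to 5299 in mutant libraries. Of the 12 muscle markers, 8 were called higher with 6 libraries. The muscle sum leaves out Ttn (base mean 9640), which was among those called (log2 fold change 0.55, DESeq2 adjusted p 0.00588). Myh3 has the highest base mean in that sum (1249) and was not called (0.32, adjusted p 0.133). Neuron markers ran from 984 to 1305 in wildtype and from 556 to 701 in mutant libraries, with 4 of 6 tested lower. Macrophage markers ran from 722 to 865 in wildtype and from 1114 to 1284 in mutant libraries, with 3 of 10 higher. Schwann cell and glial markers ran from 1258 to 1678 and from 1096 to 1229, with 1 of 7 tested lower. Endothelial markers ran from 5712 to 7210 and from 6121 to 7098, and epithelial markers from 993 to 1509 and from 1075 to 1455, with 0 of 8 called in each list. Wildtype B and mutant B were the highest of their genotypes for endothelial (7210 and 7098) and epithelial markers (1509 and 1455). They were the lowest in the sum of solved mesenchyme markers (4738 and 3744). The marker with the lowest base mean was Neurod1, at 0.591 in the authors' deposited table of 6 libraries, and it is listed at 0 in the 4-library table. The sums of muscle, neuron, macrophage, glial and solved mesenchyme markers moved with genotype, as the replication genes do. Those of endothelial and epithelial markers overlapped between genotypes. The part of any marker difference in the result was not tested. Gene length is a further measure that moves with the ratios. The Spearman correlation of exon length with the mutant over wildtype log2 ratio was 0.26 over the 47 genes and 0.17 over 13719 genes. The shorter genes thus had the lower ratios. Within a genotype, the correlation over 13719 genes was 0.21 for mutant B and 0.14 for wildtype B, each against its other libraries. Over the 47 genes these were 0.08 and 0.16.

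Promoter sequences show a feature that the choice of genes did not use. The E2F motif was searched as TTTCCCGC, TTTCGCGC, TTTGCCGC or TTTGGCGC on both strands, from 250 bases before to 50 after each RefSeq start site (GRCm38.p6). It was found for 15 of the 40 members with a promoter entry (37.5%), 22 of 62 other replication genes (35.5%) and 1 of 20 mitosis genes (5%). The share was 2.6% of all 27025 genes with an entry and 4.45% of the 11061 of these with an adjusted p. Of the members, Mcm6 held the most matches, and it is shown with Orc1, which holds a match and had a log2 fold change of 0.005, and with Rrm2 and Ccne1, which had the lowest fold changes and hold none. Sequences run 5′ to 3′ on the strand of the gene, and capitals mark the motif. The windows are chr1:128359656-128359955 (minus strand) for Mcm6, chr4:108579204-108579503 (plus) for Orc1, chr12:24708004-24708303 (plus) for Rrm2 and chr7:38107441-38107740 (minus) for Ccne1.
Mcm6: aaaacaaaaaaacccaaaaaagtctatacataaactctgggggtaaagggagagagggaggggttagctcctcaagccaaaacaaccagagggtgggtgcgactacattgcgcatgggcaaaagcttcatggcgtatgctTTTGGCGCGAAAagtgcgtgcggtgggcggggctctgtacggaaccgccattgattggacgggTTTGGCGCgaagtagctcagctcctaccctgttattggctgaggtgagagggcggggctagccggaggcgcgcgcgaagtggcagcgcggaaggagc
Orc1: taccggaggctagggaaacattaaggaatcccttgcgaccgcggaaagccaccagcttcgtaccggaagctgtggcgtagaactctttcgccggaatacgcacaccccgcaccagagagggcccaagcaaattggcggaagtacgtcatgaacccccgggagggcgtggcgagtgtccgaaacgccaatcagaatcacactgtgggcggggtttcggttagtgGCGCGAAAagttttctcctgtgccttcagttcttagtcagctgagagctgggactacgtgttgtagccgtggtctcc
Rrm2: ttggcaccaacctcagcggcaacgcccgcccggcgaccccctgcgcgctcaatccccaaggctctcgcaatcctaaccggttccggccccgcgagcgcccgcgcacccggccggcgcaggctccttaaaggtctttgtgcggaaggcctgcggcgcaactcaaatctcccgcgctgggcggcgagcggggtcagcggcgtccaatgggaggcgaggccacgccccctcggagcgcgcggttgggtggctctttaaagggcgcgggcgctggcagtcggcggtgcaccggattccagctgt
Ccne1: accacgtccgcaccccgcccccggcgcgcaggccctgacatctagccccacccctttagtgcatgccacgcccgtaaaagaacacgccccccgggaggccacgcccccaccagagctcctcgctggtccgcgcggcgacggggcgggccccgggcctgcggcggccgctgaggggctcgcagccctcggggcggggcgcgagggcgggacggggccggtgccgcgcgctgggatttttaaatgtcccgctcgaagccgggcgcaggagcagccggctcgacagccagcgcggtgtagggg
In Mcm6 the matches begin at -110, -106 and -47 from the start site, and the first 2 overlap and are read on opposite strands. In Orc1 the match begins at -27. The 15 members with a match had a median of -0.13 in the authors' deposited log2 fold changes, from -0.22 to 0.005, and the 25 with an entry and no match had -0.16, from -0.33 to -0.02. A match describes letters in this window and is not a bound site. The separate motif CCAAT was found for 60% of members, 80% of mitosis genes, 41.1% of all genes and 42.3% of genes with an adjusted p.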

How the data were processed

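RNA of 3 wildtype and 3 mutant samples was amplified before TruSeq library preparation, per the labels' protocols. HISAT2, featureCounts and DESeq2 and the builds GRCm38 and mm10 are named in the submitters' processing notes. Versions, settings and strand use are not stated there or in the labels, so overlapping genes cannot be told apart. The authors deposited tables of comparisons with no values per library. Base means are a deposited signal, the mean over libraries of reads scaled by the authors' size factors. Fold changes and standard errors are log2 values, deposited by the authors and moderated toward 0. The Wald statistic is a score deposited by the authors, and the authors' DESeq2 test gave each deposited p-value, which they adjusted by Benjamini-Hochberg. The design text describes a wildtype and a mutant library per table, whereas single-read genes show 6 libraries in the first table and 4 of the same in the second. The third holds 1613 rows, all found in the first, and was not used.

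Genes with a single read gave each library's size factor, and the base means of both tables (10 and 15 significant digits) were then solved for whole reads per library. Exactly 1 solution was found for 14640 of 14921 genes (98.12%), none for 4 and more than 1 for 277, which are highly expressed. Size factors recomputed from the solved reads by the median ratio over 16132 genes differed from those used by at most 0.0676%. The solver and the limma fit were tested on simulated data. A library's genotype came from the side of the fold change on which its single-read genes lie, and the sign was read from Meis2. Recovery and limma were chosen after the data were seen.

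Calls are the authors' adjusted p under 0.05. The alternative test was limma 3.58.1 with trend in R 4.3.3 on log2(normalised reads + 1), for genes with a mean of at least 10. Levels per kb and coordinates used GENCODE M21 (GRCm38) exons, and promoters came from RefSeq. Named genes are Meis2, called members, the 5 members with the smallest and the 5 with the largest p, and the 5 with the highest and the 5 with the lowest base mean. Of other lists these are called genes and the 3 with the smallest p. The members and lists were chosen with earlier results of these data known.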

Additional observations from a re-analysis of the deposited data

How the results depend on the processing

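The count of replication genes called was 0 of 48 in the authors' deposited table of 6 libraries. It was 1 with the 4-library table, where 0.99% of all genes fell. At an adjusted p under 0.1 it was 2, beside 550 of the 14939 genes with a unique symbol. At an unadjusted p under 0.05 it was 8, with 5.11% of all genes lower. With limma on the recovered reads it was 0 of 47, and it stayed at 0 with a pseudocount of 0.5, with no filter on low values, with scaling to the reads in solved genes and without each library in turn (lowest 0, highest 0). It was 9 with a term for the 2 libraries outside the 4-library table and 1 without these 2 libraries. Of all 14277 genes in these fits, 799 were called lower with the term and 210 without the 2 libraries. The median log2 fold change on recovered reads, -0.18, ran from -0.10 without mutant B to -0.23 without wildtype B, and was -0.15 with scaling to the reads in solved genes. The number of genes below 0 on recovered reads ran from 42 to 47 over the same settings. In the deposited table of 6 libraries, 47 of 48 genes remained below 0 after the median of all genes was subtracted. Of the 27 genes named by rule, 6 changed sign under some alternative, all with values near 0 and none with a call. In the 4-library table Gins2 was at 0.0203, Dnmt1 at 0.00540 and Cdc7 at 0.0230. With limma without the 2 outside libraries Gins2 was at 0.0168 and Cdc7 at 0.0182, and Cdc7 was at 0.00782 with scaling to the reads in solved genes. Over the fits without 1 library each, Pole ran from -0.115 to 0.0217 (without mutant C), Gins2 from -0.156 to 0.0374 (without mutant B), Mcm5 from -0.142 to 0.0160 (without mutant B), Cdc7 from -0.0585 to 0.03001 (without wildtype B) and Orc1 from -0.0159 (without wildtype A) to 0.0176. The cause was not tested. All limma settings other than leaving out a library were chosen after the data were seen. No paired analysis was possible because the tables carry no replicate numbers. With 3 libraries per genotype, standard errors of the deposited log2 fold changes were 0.0793 to 0.123 for the 48 genes, beside a median of -0.15.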
